A study of Mus musculus with 4 samples.

Results

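Naive T cells of mice express a set of genes that effector cells express less and that memory cells keep in part. Of the genes of these programs, 9 were followed here among the 32285 genes of the features files: Lef1, Tcf7, Il7r, Cd27, Dapl1, Igfbp4, Ecm1, Myo6 and Pdlim4. They were chosen by symbol, with earlier results of these data known, and all 9 were present in both expression libraries. The samples were CD45+ cells sorted by flow cytometry from peritoneal lavage of KO mice and of WT mice. All mice of both genotypes had been on a high-fat diet (HFD) for 3 months, starting at 4 weeks of age, so that no group on another diet stands beside them. Each genotype gave 1 droplet gene expression library and 1 B-cell receptor library, and the labels do not say how many mice stand behind a library. With 1 library per genotype there was no replicate check and no test: a difference between the libraries cannot be told apart from a difference between the genotypes, and every interval below covers counting error only.

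A naive T cell has left the thymus and has not yet met its antigen. It recirculates through lymph nodes under the homing receptor CCR7, survives on interleukin-7 and on weak signals through its T-cell receptor, and is kept in its state by the transcription factors TCF-1 (Tcf7) and LEF-1. After antigen, effector cells lower these genes, while memory cells keep or regain part of them. The peritoneal cavity holds T cells that have mostly met antigen next to a smaller number that circulate through it.

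The 9 genes fall into 3 roles. Lef1 and Tcf7 encode DNA-binding partners of beta-catenin that work downstream of Notch and Wnt signals in T-cell development. Il7r and Cd27 encode surface receptors, the alpha chain of the interleukin-7 receptor and a costimulatory member of the tumour necrosis factor receptor family. The other 5 are genes without a classical role in T-cell signalling: Dapl1 encodes a small protein of the death-associated protein family, Igfbp4 a secreted protein that binds insulin-like growth factors, Ecm1 a secreted matrix glycoprotein, Myo6 a myosin that moves towards the minus end of actin filaments, and Pdlim4 a PDZ and LIM domain protein of the actin cytoskeleton.

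The 250 bases before the annotated start are shown for the 4 genes with the lowest KO over WT ratios in T cells, since these carry the comparison below. They come from RefSeq on GRCm38.p6, while the submitters' processing notes name mm39, so the positions are those of GRCm38.p6. The windows lie at chr11:54069018-54069267 on the minus strand for Pdlim4, chr9:80164784-80165033 on the plus strand for Myo6, chr2:59484403-59484652 on the plus strand for Dapl1 and chr11:99040994-99041243 on the plus strand for Igfbp4. Each is printed 5′ to 3′ on the strand of its gene, with the matches described next in capitals.
Pdlim4: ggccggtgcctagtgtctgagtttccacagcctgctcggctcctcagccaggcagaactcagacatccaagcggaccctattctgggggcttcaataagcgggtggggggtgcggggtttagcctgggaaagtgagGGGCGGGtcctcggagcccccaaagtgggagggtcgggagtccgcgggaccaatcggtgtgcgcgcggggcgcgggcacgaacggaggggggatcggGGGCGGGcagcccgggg
Myo6: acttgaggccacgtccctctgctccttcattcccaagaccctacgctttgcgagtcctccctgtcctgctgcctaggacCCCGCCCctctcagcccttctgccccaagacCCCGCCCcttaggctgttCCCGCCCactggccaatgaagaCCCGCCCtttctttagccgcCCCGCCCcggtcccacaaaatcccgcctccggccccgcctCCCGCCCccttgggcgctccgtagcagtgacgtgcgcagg
Dapl1: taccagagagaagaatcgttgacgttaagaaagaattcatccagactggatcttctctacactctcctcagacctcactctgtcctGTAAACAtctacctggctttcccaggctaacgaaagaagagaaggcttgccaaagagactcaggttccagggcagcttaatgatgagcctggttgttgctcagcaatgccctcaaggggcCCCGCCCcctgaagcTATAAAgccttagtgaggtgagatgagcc
Igfbp4: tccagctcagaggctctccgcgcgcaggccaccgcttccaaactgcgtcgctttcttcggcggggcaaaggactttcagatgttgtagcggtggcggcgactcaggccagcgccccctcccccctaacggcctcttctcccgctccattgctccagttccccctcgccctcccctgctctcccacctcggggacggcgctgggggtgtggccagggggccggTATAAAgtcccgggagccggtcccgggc

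The capitals mark 3 of 4 motifs that were searched as plain letters on both strands. RefSeq gave 13 such windows for the 9 genes, with 4 for Lef1 and 2 for Tcf7. The GC box GGGCGGG, the letters bound by Sp1 family factors, stood in 9 of these 13 windows, against 23.4% of all 32851 windows in the table. These windows belong to 6 of the 9 genes, and overlapping Lef1 windows count the same box more than once. The GC box was found 6 times before Myo6, each time as CCCGCCC on the strand shown, and 2 times before Pdlim4. The TATA box TATAAA stood in 5 of the 13 windows, against 12.4% of all windows. In Dapl1, Igfbp4 and Ecm1 its first base lay 29, 28 and 27 bases before the start, and 2.12% of all windows hold one 25 to 35 bases before the start, a range chosen after the positions were seen. The FOXO site GTAAACA, bound by the factors that hold naive T cells in quiescence, was found before Dapl1 only, 164 bases before the start, against 3.17% of all windows. The TCF/LEF core CTTTGA was found in 1 window of Lef1 and in none of the other members' windows, against 13.8% of all windows. Pdlim4 and Igfbp4 windows held 69.2% G or C and the Myo6 window 67.6%, against 50% for Dapl1 and a median of 52.4% over all windows. These matches are a description of letters and say nothing about binding.

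The KO library held 22516 barcodes with a median of 3298 UMIs, counts of single RNA molecules, and the WT library 10087 barcodes with a median of 6362. The automatic doublet threshold marked 0 barcodes in either library and so had not worked, and doublets were removed by a fixed rate instead, 17.5% of KO and 7.58% of WT barcodes. Both libraries shared 293 barcode sequences, and clusters left unnamed held 6.09% of KO and 6.33% of WT barcodes. T cells were taken as barcodes of clusters named T-like from their markers with at least 1 UMI of Cd3d, Cd3e or Cd3g, which gave 3352 KO and 1884 WT barcodes. Within them, 689 KO and 695 WT barcodes were CD4 T cells, 648 and 379 were CD8 T cells, 119 and 55 had a Foxp3 UMI, and 168 and 77 were gamma-delta T cells with a Trdc UMI. No subset marker had a UMI in 50.4% of KO and 34.3% of WT T barcodes, at median depths of 1966 and 3831 UMIs. The 7 T-cell markers summed to 3818 CPM (the population's UMIs of a gene scaled to a total of 1000000) in KO T cells and 3613 CPM in WT T cells, and Cd3d, Cd3e and Cd3g had no UMI in the 525 KO and 295 WT NK cells, by their definition.

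B-cell and macrophage RNA was more frequent in KO T cells. The summed level of 5 B-cell markers was 505 CPM in KO T cells and 250 CPM in WT T cells, with 5 of 5 markers higher. The summed level of 6 macrophage markers was 56.0 CPM in KO T cells and 12.2 CPM in WT T cells, with Fcgr1 at 0 in both libraries and Adgre1 at 0 in WT, while macrophages themselves had 32411 and 35081 CPM. A UMI of Cd79a, Cd79b, Ms4a1 or Lyz2 was present in 46.2% of KO and 21.5% of WT T barcodes. Of the 4 plasma cell markers, Jchain was 0.563 CPM in KO and 119 CPM in WT T cells, Mzb1 was 40.3 and 26.4 CPM, and Sdc1 and Derl3 were under 5 CPM in both. The part of this RNA in the results was not tested. The count of members below was 5 in place of 6 in all T cells when those barcodes were left out. B cells, which should lack the 9 genes, had at most 5.68 CPM of any of them in KO and 7.34 CPM in WT, with Tcf7 the highest in both. Thinned to 1000 UMIs, at most 0.505% of KO and 0.756% of WT B cells had a UMI of any one member, from median depths of 3188 and 6936 UMIs, against 2253 and 4425 UMIs in T cells. Macrophages did express some members, with Ecm1 at 934 CPM in KO and 954 CPM in WT. Pdlim4 was 55.5 and 55.6 CPM in them, and Igfbp4 48.5 and 32.6 CPM.

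The KO T cells had lower levels of 6 of the 9 members: Lef1, Cd27, Dapl1, Igfbp4, Myo6 and Pdlim4 had KO over WT ratios between 0.460 and 0.795. Tcf7 had a ratio of 0.841, Il7r of 1.02 and Ecm1 of 0.964. A gene was called lower where the ratio of its summed CPM was at most 0.8 with its 95% interval below 1, and higher where it was at least the inverse of 0.8 with its interval above 1. By this rule 6 of the 9 members were called lower and 0 higher, all 9 having passed a filter at a mean of 10 CPM, against 3.77% called lower and 6.62% called higher among all genes that passed in T cells. The members were chosen with earlier results of these data known, so shares over all genes stand beside them as a description only. The median log2 ratio was -0.44 over the 9 members and 0.02 over all genes. The lower calls rested in part on 1 cluster of T cells, described further on: without it 3 members were called lower. In CD4 T cells 6 members were again called lower and 0 higher, against 4.28% and 5.73% of all genes. Without the cluster this count was 3, and with clusters weighted alike it was 2, Cd27 and Dapl1. Weighting alike averaged the CPM of each T-like cluster with at least 20 barcodes of the population in both libraries. It used a clustering from which the 9 genes were not left out, and small clusters counted as much as large ones. In CD8 T cells 2 members were called lower and 1 higher, against 3.84% and 4.61% of all genes. Both of the lower calls in CD8 T cells rest on few UMIs, and the count was 0 under 5 of the alternative settings and 1 under 3 more.

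**Figure D1:**
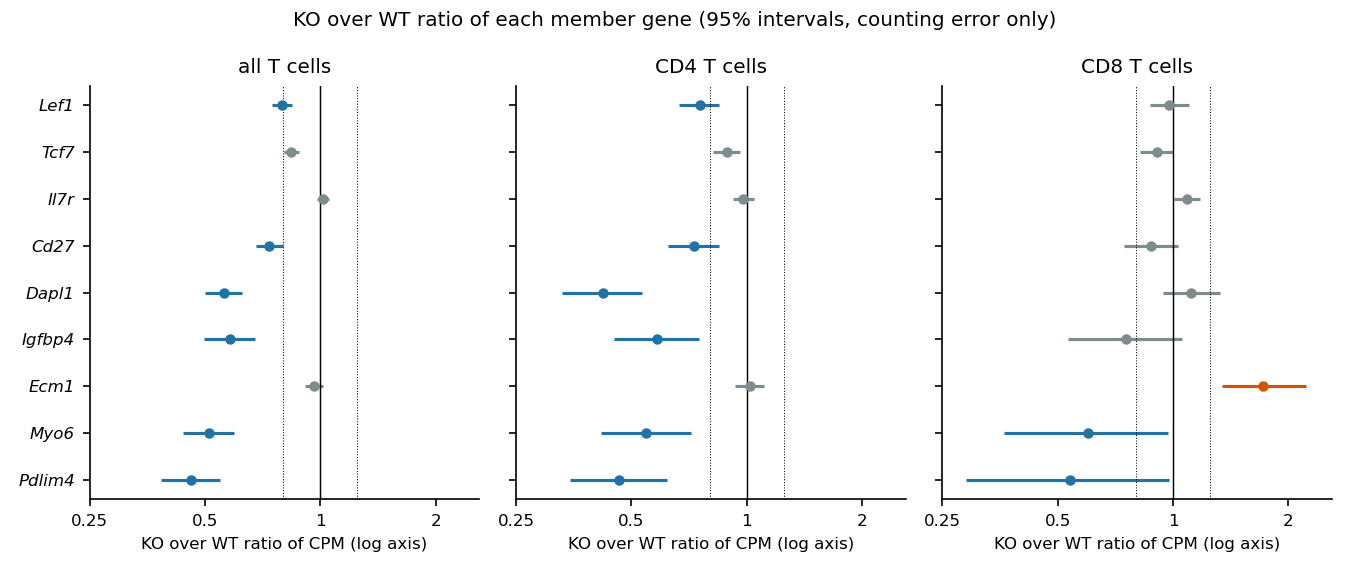
KO over WT ratio of summed CPM of each of the 9 genes (log axis) in all T cells, CD4 T cells and CD8 T cells, with bars for the 95% counting interval and dotted lines at the limits of a call (blue points are called lower, orange higher, grey neither). In CD4 T cells Dapl1 lies lowest at 0.421, while in CD8 T cells it lies at 1.12 and Ecm1 at 1.72.

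Lef1, one of the transcription factor genes, had 1869 UMIs or 210 CPM in KO T cells and 2389 UMIs or 265 CPM in WT T cells. The ratio of 0.795 (95% interval 0.748 to 0.845) lay just inside the limit for a call, and it was 0.943 with clusters weighted alike. In CD4 T cells the level was 199 CPM in KO and 264 CPM in WT, a ratio of 0.754 (0.668 to 0.849), and with clusters weighted alike the ratio was 0.988. CD8 T cells lay side by side, with 267 CPM in KO and 273 CPM in WT. Lef1 was therefore higher in CD8 than in CD4 T cells of the KO library, with intervals that did not overlap, whereas in the WT library the intervals of the pair overlapped. In barcodes thinned to 1000 UMIs, Lef1 had a UMI in 17.8% of KO and 21.0% of WT T cells, and without thinning in 34.6% and 56.3%.

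Tcf7 was 366 CPM in KO T cells and 436 CPM in WT T cells, a ratio of 0.841 (0.802 to 0.881) that was below 1 but not past the limit for a call. Levels in CD4 T cells were 448 CPM in KO and 506 CPM in WT, and those in CD8 T cells 355 and 391 CPM. In each library its order was CD4 above CD8, and CD8 above gamma-delta and NK cells, whose intervals overlapped each other. Foxp3-positive T cells came last, with 132 CPM in KO and 192 CPM in WT, where the WT interval overlapped that of NK cells. Thinned to 1000 UMIs, 29.5% of KO and 35.3% of WT T cells had a Tcf7 UMI, and 52.3% and 78.0% did without thinning.

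Il7r, the receptor gene that naive, memory and innate-like T cells all depend on, was 733 CPM in KO T cells and 722 CPM in WT T cells, a ratio of 1.02 (0.981 to 1.05). The libraries lay side by side. Gamma-delta T cells had the highest level in both libraries, with 927 CPM in KO and 1016 CPM in WT. CD4 T cells followed with 757 CPM in KO and 773 CPM in WT, then CD8 T cells with 605 and 556 CPM. Foxp3-positive T cells and NK cells shared the lowest places with overlapping intervals. Almost equal shares of thinned T cells had an Il7r UMI, 48.5% in KO and 48.2% in WT, while without thinning the shares were 69.9% and 82.6%.

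Cd27, whose protein binds CD70 and supports survival of primed T cells, was 121 CPM in KO T cells and 164 CPM in WT T cells, a ratio of 0.736 (0.680 to 0.797). CD4 T cells had 120 CPM in KO and 164 CPM in WT, a ratio of 0.728 (0.623 to 0.849). The ratio in CD8 T cells was 0.877 (0.747 to 1.03), with 139 CPM in KO and 159 CPM in WT. The lowest ratio was in gamma-delta T cells, where 16 KO UMIs gave 27.6 CPM and 51 WT UMIs gave 115 CPM. Cd27 is known in mice to separate gamma-delta T cells that make interferon-gamma from those that make interleukin-17, which lack it. Gamma-delta T cells had the lowest Cd27 level of the 5 populations in both libraries, and in KO alone their interval did not reach the next population. After thinning, 11.7% of KO and 15.2% of WT T cells had a Cd27 UMI, and without thinning 24.6% and 48.4%.

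Dapl1 was 55.8 CPM in KO T cells and 99.8 CPM in WT T cells, a ratio of 0.559 (0.50 to 0.625). The subsets differed. CD4 T cells had 90 UMIs or 45.4 CPM in KO and 367 UMIs or 108 CPM in WT, a ratio of 0.421 (0.331 to 0.532) that was 0.645 with clusters weighted alike, while CD8 T cells had 140 CPM in KO and 125 CPM in WT, a ratio of 1.12 (0.941 to 1.32). These 2 intervals do not overlap. In T cells with no subset marker the ratio was 0.340 (0.267 to 0.430). Dapl1 was thus highest in CD8 T cells of the KO library, whereas the CD8 and CD4 intervals overlapped in WT. Gamma-delta T cells had 3 KO and 16 WT UMIs, Foxp3-positive T cells 0 and 8, and NK cells had none in either library. Of thinned T cells, 3.85% in KO and 6.64% in WT had a Dapl1 UMI, against 7.37% and 16.4% without thinning.

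Igfbp4 was 30.1 CPM in KO T cells and 51.9 CPM in WT T cells, a ratio of 0.580 (0.497 to 0.675), and with clusters weighted alike the ratio was 1.0 (0.855 to 1.17). It was 42.4 CPM in KO and 72.6 CPM in WT CD4 T cells, a ratio of 0.584 (0.450 to 0.751). This value depended on how CD4 T cells were set: it was 1.40 where at least 2 Cd4 UMIs were asked for, and 1.22 with the clusters weighted alike. Among CD8 T cells, 61 KO and 85 WT UMIs gave 29.8 and 39.6 CPM, with an interval of the ratio that includes 1. NK cells had no Igfbp4 UMI, with upper 95% limits of 3.55 CPM in KO and 3.58 CPM in WT.

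Myo6 was 28.1 CPM in KO T cells and 55.1 CPM in WT T cells, a ratio of 0.511 (0.437 to 0.596). Its level in CD4 T cells was 37.3 CPM in KO and 68.2 CPM in WT, a ratio of 0.548 (0.416 to 0.715). With clusters weighted alike the ratio was 0.787 in all T cells and 0.937 (0.682 to 1.29) in CD4 T cells, where it was then not called. CD8 T cells had 28 KO and 49 WT UMIs, a ratio of 0.600 (0.363 to 0.973). NK cells had 27.9 CPM in KO and 26.2 CPM in WT, so that they stood close to each other and, in the KO library, their interval overlapped that of CD4 T cells. Of the 5 less classical genes, Myo6 alone passed the filter in NK cells.

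Pdlim4 had the lowest ratio of the 9 members in T cells, 0.460 (0.385 to 0.548), with 20.9 CPM in KO and 45.5 CPM in WT. CD4 T cells had 62 UMIs or 31.3 CPM in KO and 229 UMIs or 67.3 CPM in WT, a ratio of 0.465 (0.345 to 0.618). With clusters weighted alike the ratio was 0.731 in all T cells and 0.922 (0.683 to 1.24) in CD4 T cells. CD8 T cells had 18 KO and 35 WT UMIs and passed the filter on the WT level alone, with a ratio of 0.540 (0.288 to 0.979). Among CD4, CD8, Foxp3-positive and gamma-delta T cells and NK cells, CD4 T cells were the highest in both libraries, with intervals apart from the next. Macrophages had 55.5 CPM in KO and 55.6 CPM in WT, above CD4 T cells in KO. In thinned T cells a Pdlim4 UMI was seen in 1.62% of KO and 3.59% of WT barcodes, and without thinning in 3.46% and 10.4%.

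Ecm1 was close between the libraries over all T cells, with 299 CPM in KO and 310 CPM in WT (ratio 0.964, 0.913 to 1.02), and over CD4 T cells, with 400 and 392 CPM (1.02, 0.932 to 1.11). With clusters weighted alike it was higher in KO, at 1.35 in all T cells and 1.49 in CD4 T cells. Other subsets went in opposite directions, a difference that was not tested. CD8 T cells had 169 UMIs or 82.6 CPM in KO and 103 UMIs or 47.9 CPM in WT, a ratio of 1.72 (1.34 to 2.22). This is the one higher call of a member in the T-cell and NK populations as first summed, and thinned to 1000 UMIs per barcode the ratio was 0.868. An Ecm1 UMI was present in 9.10% of KO and 9.23% of WT CD8 T cells, and 1 KO barcode held 30 of the 169 UMIs. Foxp3-positive T cells had 142 CPM in KO and 379 CPM in WT, a ratio of 0.374 (0.253 to 0.545), and gamma-delta T cells 44.8 and 102 CPM, a ratio of 0.441 (0.261 to 0.731). The gamma-delta UMIs came from 6 KO barcodes, with 12 of 26 UMIs in 1, and 10 WT barcodes, with 18 of 45 in 1. The intervals take each UMI as independent. Macrophage markers summed to 53.2 CPM in KO and 12.1 CPM in WT CD8 T cells, with Fcgr1 at 0 in both. At the ratio of Ecm1 to these markers in macrophages, that much macrophage RNA holds 1.54 CPM of Ecm1 in KO and 0.329 CPM in WT. This scaling used only clusters named macrophage, where Lyz2 made up 30539 of the 32411 CPM of the markers in KO. Ecm1 RNA from other cells does not enter it. The part of RNA from other cells in the CD8 ratio was not tested.

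**Figure D2:**
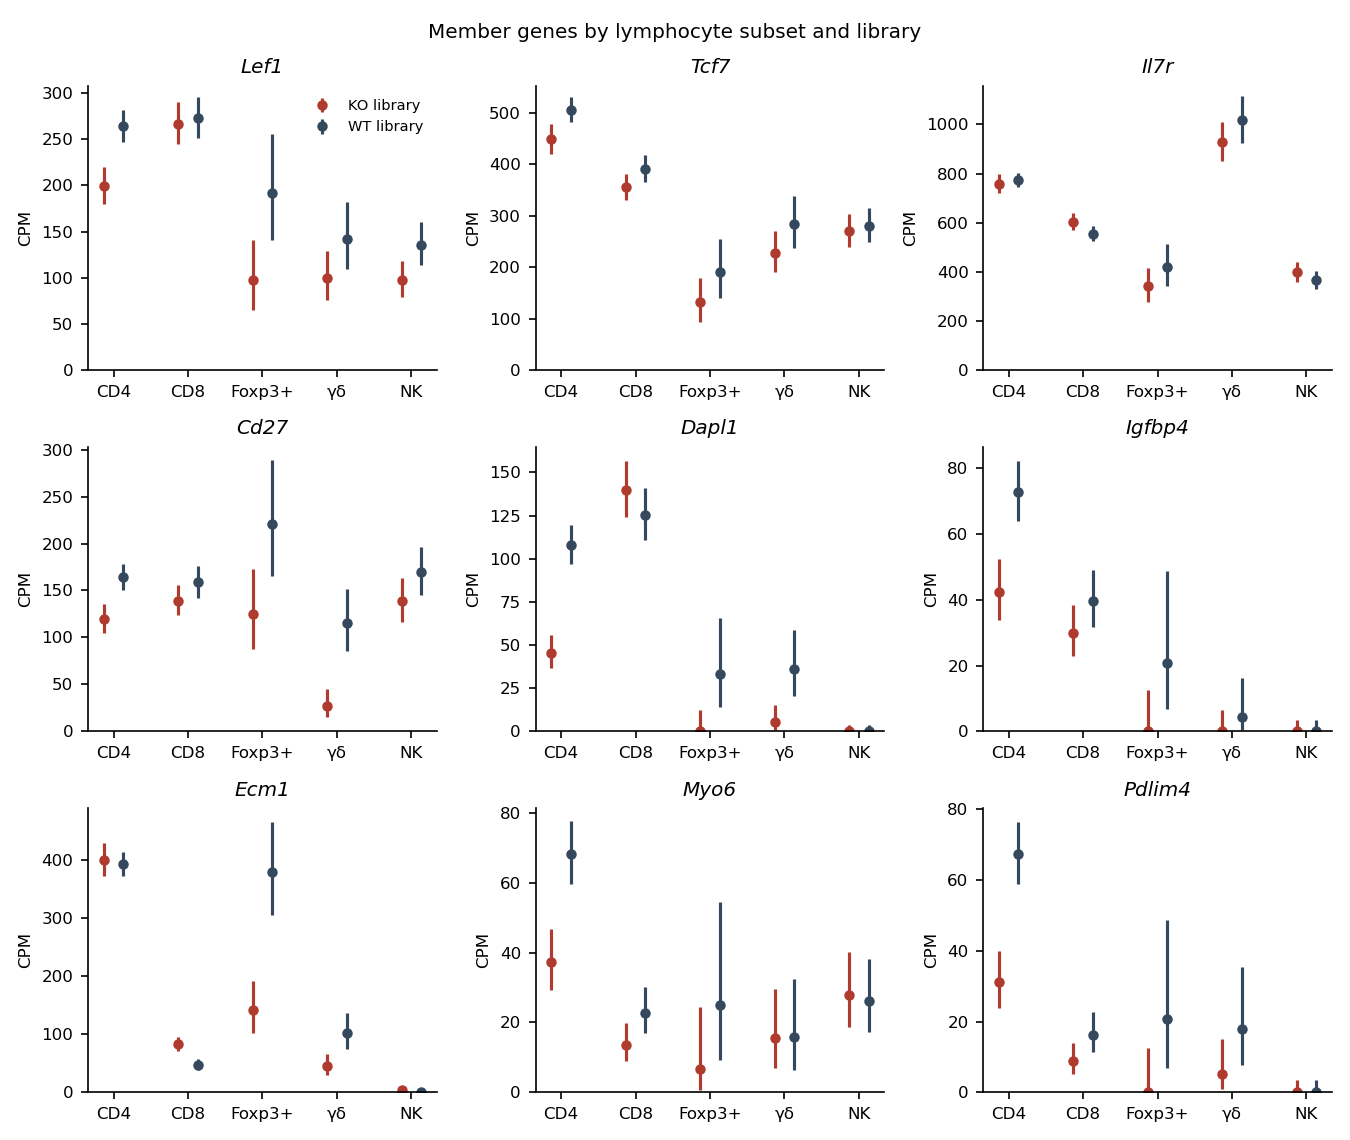
Summed CPM of each of the 9 genes in CD4, CD8, Foxp3-positive and gamma-delta T cells and in NK cells, with KO left of WT and bars for the exact Poisson 95% interval. Il7r is highest in gamma-delta T cells of both libraries, with 927 CPM in KO and 1016 CPM in WT, and Dapl1 in CD4 T cells is 45.4 CPM in KO and 108 CPM in WT.

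In Foxp3-positive T cells, taken as regulatory T cells by the gene of their lineage factor, 6 of the 9 members were called lower and 0 higher, against 2.85% and 3.8% of all genes. Lef1 was 98.0 CPM in KO and 192 CPM in WT, Cd27 125 and 221 CPM, and Dapl1, Igfbp4 and Pdlim4 had 0 KO UMIs against 8, 5 and 5 WT UMIs. The last 3 passed the filter on their WT level alone, so that they could only be lower. Their WT UMIs came from 2 barcodes for Dapl1, 2 for Igfbp4 and 1 for Pdlim4, while the intervals take each UMI as independent. A B-cell receptor contig was found in 25.2% of KO and 14.5% of WT Foxp3-positive barcodes, and the B-cell markers summed to 2282 CPM in KO and 1142 CPM in WT. In the 52 KO and 39 WT barcodes without a contig or a B-cell marker UMI, Ecm1 kept a ratio of 0.307 (0.164 to 0.539) and Lef1 of 0.434 (0.201 to 0.862). There the interval of Cd27 included 1, at 0.707 (0.338 to 1.40), and the ratio of Tcf7 was 1.07.

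In gamma-delta T cells 8 members passed the filter, 3 were called lower and 0 higher, against 3.71% and 3.53% of all genes. These were Cd27, Dapl1 and Ecm1, of which Dapl1 passed the filter on its WT level alone. The 16 WT UMIs of Dapl1 came from 4 barcodes, with 9 UMIs in 1 of them. In the 96 KO and 54 WT barcodes without a contig or a B-cell marker UMI, Cd27 had a ratio of 0.219 (0.0982 to 0.441) and Ecm1 of 0.762 (0.395 to 1.45), while Dapl1 had 1 KO and 7 WT UMIs (0.138, 0.00305 to 1.07). In NK cells, which use Lef1 and Tcf7 during development, 5 members passed the filter, and Lef1 was called lower with 97.2 CPM in KO and 136 CPM in WT, against 3.63% of all genes called lower and 4.67% called higher. B-cell markers summed to 334 CPM in KO and 47.5 CPM in WT NK cells, with 5 of 5 higher, and 3 of 7 NK markers were called lower; their part in the result was not tested. In T cells with no subset marker 6 members were called lower and 0 higher, against 4.26% and 6.48% of all genes.

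The barcodes of both libraries were also clustered with the 9 genes left out of the variable genes, so that the clusters were not built from them. Of the resulting clusters one, led by Ms4a4b, Ecm1, Cd3d and Lef1 among all genes, held 312 or 9.31% (8.35 to 10.3) of KO T barcodes and 330 or 17.5% (15.8 to 19.3) of WT T barcodes. Its level of the homing receptor gene Ccr7 was 622 CPM in KO and 694 CPM in WT. Genes of cells that have met antigen were low in it: Cd44 was 23.9 CPM in KO and 18.9 CPM in WT, and Cxcr6 had no UMI. It held 10.6% of KO and 21.3% of WT CD4 T cells. This cluster was singled out after its values were seen.

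The share of a member's T-cell UMIs that lay in this cluster separates the members. It held 71.2% of KO and 83.3% of WT Igfbp4 UMIs, and 69.4% and 86.1% of Pdlim4 UMIs. It held 51.2% of KO and 69.0% of WT Ecm1 UMIs and 41.6% and 60.0% of Myo6 UMIs. For Dapl1 the shares were 21.6% in KO and 49.2% in WT, and for Lef1 24.6% and 38.8%. For Tcf7 it held 9.31% of KO and 18.5% of WT UMIs and for Cd27 9.80% and 18.3%, near its share of barcodes, and for Il7r 6.45% and 14.9%, below that share.

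Inside the cluster several differences were smaller or absent. Igfbp4 was 253 CPM in KO and 246 CPM in WT, a ratio of 1.03 (0.861 to 1.23), and Lef1 612 and 584 CPM, a ratio of 1.05 (0.935 to 1.17). Pdlim4 was 172 CPM in KO and 223 CPM in WT, a ratio of 0.770 (0.624 to 0.944), and Myo6 138 and 188 CPM, a ratio of 0.737 (0.584 to 0.924). Dapl1 stayed at about the ratio seen in all T cells, with 142 CPM in KO and 279 CPM in WT (0.510, 0.409 to 0.631). Ecm1 went the other way, with 1806 CPM in KO and 1214 CPM in WT (1.49, 1.39 to 1.60). Tcf7, Il7r and Cd27 had ratios of 0.878, 0.916 and 0.821 in it, each with an interval that includes 1.

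With the cluster left out, an alternative added after the data were seen, the T-cell ratio was 0.777 for Dapl1, 0.731 for Cd27 and 0.671 for Myo6, the 3 members then called lower. It was 0.881 for Lef1, 0.903 for Igfbp4, 0.915 for Pdlim4 and 1.36 for Ecm1. Lef1, Igfbp4 and Pdlim4 were thus called lower over all T cells and not over the T barcodes outside this cluster, while the ratio of Cd27 was 0.736 with it and 0.731 without it.

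In the largest cluster, which held 46.4% of KO and 46.1% of WT T barcodes and most CD4 T cells, Cd27 was 115 CPM in KO and 177 CPM in WT, a ratio of 0.649 (0.573 to 0.734). Dapl1 had 73 KO and 132 WT UMIs there (0.530, 0.393 to 0.711) and Myo6 70 and 128 (0.524, 0.386 to 0.707). Igfbp4 and Pdlim4 were scarce and went the other way, with 13 KO and 1 WT UMIs of Igfbp4 (12.5, 1.87 to 530) and 28 KO and 14 WT UMIs of Pdlim4 (1.92, 0.976 to 3.94). Ecm1 was 255 CPM in KO and 158 CPM in WT, a ratio of 1.61 (1.45 to 1.79). Ecm1 was thus higher in KO within this cluster, within the Ms4a4b and Ecm1 cluster and within the CD8 cluster, where it was 77.2 CPM in KO and 35.6 CPM in WT (2.17, 1.63 to 2.91), although its ratio over all T cells was 0.964. In the CD8 cluster the intervals of 7 of the other 8 members included 1, and Tcf7 was 0.888 (0.801 to 0.984).

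The cluster richest in gamma-delta T cells held 8.0% of KO and 5.36% of WT T barcodes. Cd27 had 4 KO and 20 WT UMIs in it, a ratio of 0.143 (0.0355 to 0.426), and Ecm1 49 and 136 UMIs, a ratio of 0.257 (0.182 to 0.359). Pdlim4 had 3 KO and 17 WT UMIs there. Tcf7 was also called lower in this cluster, at 0.685 (0.557 to 0.842) with 185 KO and 193 WT UMIs, and so was Lef1, at 0.643 (0.420 to 0.981). Il7r was 1013 CPM in KO and 1058 CPM in WT, close to its level in gamma-delta T cells set by Trdc.

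**Figure D3:**
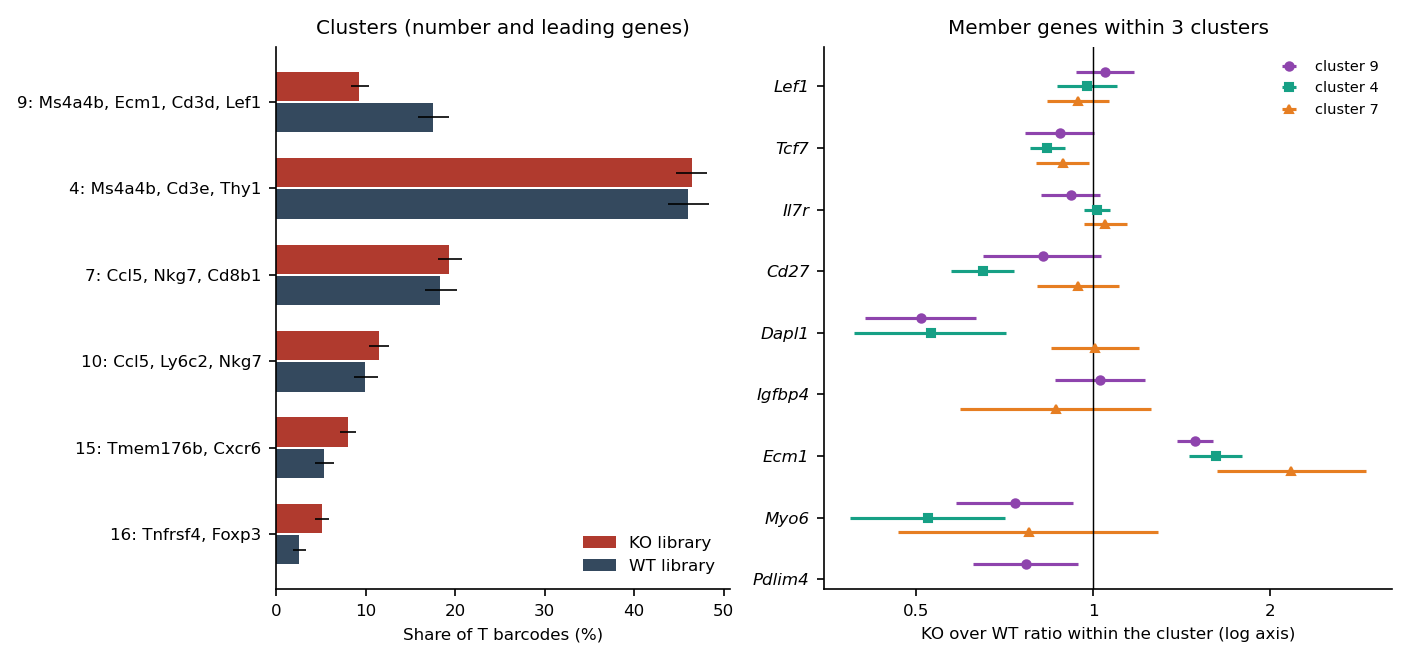
Left, share of T barcodes (percent) of each library in the clusters built without the 9 genes, with KO above WT and bars for the exact 95% binomial interval; right, KO over WT ratio of each gene (log axis) within 3 of these clusters, the one led by Ms4a4b and Ecm1 (9), the largest (4) and the CD8 cluster (7), with 95% counting intervals and no point under a mean of 10 CPM. In the cluster led by Ms4a4b and Ecm1, Dapl1 lies at 0.510 and Igfbp4 at 1.03, and Ecm1 lies above 1 in it, at 1.49, and in the CD8 cluster, at 2.17.

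Counted barcode by barcode after thinning to 1000 UMIs, at least 1 of the 9 genes had a UMI in 78.0% of KO and 82.3% of WT T cells. At least 2 did in 36.5% of KO and 45.9% of WT T cells, and at least 3 in 11.0% and 16.5%. For CD4 T cells the shares with at least 3 were 13.7% in KO and 19.6% in WT, and for CD8 T cells 9.78% and 14.2%. At every one of these cut-offs the KO share was the smaller, and for at least 3 genes the intervals lay apart in all T cells and in CD4 T cells and overlapped in CD8 T cells. Thinning left out 210 KO and 47 WT T barcodes under 1000 UMIs.

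**Figure D4:**
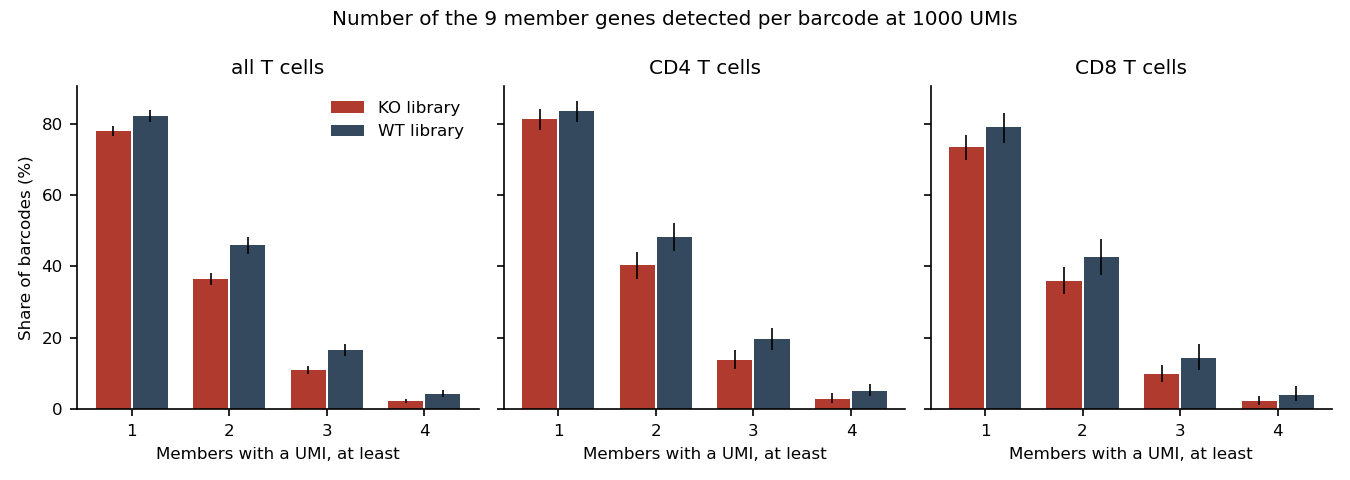
Share of thinned barcodes (percent) with a UMI of at least 1, 2, 3 or 4 of the 9 genes in all T cells, CD4 T cells and CD8 T cells, with KO left of WT and bars for the exact 95% binomial interval. At least 3 genes were seen in 11.0% of KO and 16.5% of WT T cells.

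Some members met in the same CD4 T cells. Of 28 thinned WT CD4 T cells with an Igfbp4 UMI, 60.7% also had a Lef1 UMI and 42.9% an Ecm1 UMI, against 18.9% and 13.9% of those without an Igfbp4 UMI. Of 38 with a Pdlim4 UMI, 39.5% had an Ecm1 UMI, against 13.7% of those without. In KO CD4 T cells, 5 of 10 barcodes with an Igfbp4 UMI and 7 of 17 with a Pdlim4 UMI had an Ecm1 UMI. Among CD8 T cells, Ecm1 met Igfbp4 in 0 of 14 KO and 1 of 11 WT barcodes and Pdlim4 in 0 of 6 KO and 1 of 8 WT barcodes, numbers too small to set a share.

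Other genes of the same programs were taken as lists, also chosen with earlier results of these data known. Foxo1, Satb1, Bcl2 and Il2rb were each in 2 of them. In the list of naive and central memory genes, 24 of 25 passed the filter in T cells, 4 were called lower and 1 higher, against 3.77% and 6.62% of all genes, with a median log2 ratio of -0.12. Lower were Actn1, an actin crosslinker, at 0.678, Ly6c1 at 0.722, Il6ra, the interleukin-6 receptor alpha chain, at 0.729, and Tdrp at 0.735, the last named after its value was seen. Cxcr5, the follicle homing receptor, was higher at 1.57, and the part of B-cell RNA in this value was not tested. Ccr7, also named after its value was seen, had a ratio of 0.826, not past the limit. In CD4 T cells the same list had 6 called lower and 3 higher of 24, against 4.28% and 5.73% of all genes, with Ccr7 at 0.650. The CD8 T cells had 1 lower and 0 higher of 25, near the 3.84% called lower among all genes.

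Of the 26 genes in the list of effector memory and residency genes, 24 passed in T cells. Among these, 9 were called higher, 1 lower and 14 neither, against 6.62% of all genes called higher and 3.77% lower, with a median log2 ratio of 0.21. Higher were Klrg1, an inhibitory receptor of effector cells, at 1.85, Pdcd1, which encodes PD-1, at 1.67, and the granzyme genes Gzmk at 1.59 and Gzmb at 1.56. The lower one was Ifng, the interferon-gamma gene, at 0.685, named after its value was seen. In CD4 T cells 7 were called higher and 1 lower of 23, against 5.73% and 4.28% of all genes, and in CD8 T cells 6 higher and 2 lower of 24, against 4.61% and 3.84%.

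Of 17 measured interleukin-7 receptor signalling genes, 0 were called lower and 1 higher in T cells, near the 6.62% called higher among all genes; it was Il2ra, the interleukin-2 receptor alpha chain, at 1.42, while Foxo1 was at 0.849 and Socs1 at 1.14. Of 14 measured TCF-LEF partners and co-factors, 0 were called in either direction, near the 3.77% called lower and 6.62% called higher among all genes. Satb1, a chromatin organiser of the T lineage, was at 0.855 and Runx3 at 1.16. Of 13 genes of CD27 signalling and related receptors, 0 were called lower and 3 higher, against 3.77% and 6.62% of all genes. They were Tnfrsf9 at 1.58, Tnfrsf18 at 1.30 and Tnfrsf4 at 1.30, all costimulatory receptors. Tnfrsf18 and Tnfrsf4 were also among the leading genes of the cluster richest in Foxp3-positive T cells. That cluster held 5.10% of KO and 2.55% of WT T barcodes, and its part in these values was not tested. Of 15 genes of the T-cell receptor complex and its first signalling steps, 0 were called in either direction, again near these shares over all genes. Themis was at 0.857 and Fyn at 1.11.

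The patterns of the members over populations were set beside those of 4676 genes that reached 50 CPM in some population. Pearson's r of log2(CPM + 1) over 16 sums of 8 populations in the 2 libraries served as the measure, given as a description, since the sums of a library share its depth and its free RNA. Lck (0.984) was among the 2 genes most like Lef1, and Thy1 (0.996) among those most like Il7r. Tcf7 was most like Cxcr3 (0.985) and Lef1 (0.983), and Cd27 like Peli1 (0.987) and Lck (0.985). Igfbp4 was most like Pdlim4 (0.922) and Dapl1 (0.822), and Pdlim4 like Igfbp4 (0.922) and Ecm1 (0.879). The populations include B cells and macrophages, and macrophages express Igfbp4, Pdlim4 and Ecm1, so these values do not describe T cells alone. Dapl1 was most like Gtf2i (0.894) and Tcp1 (0.890), Ecm1 like Rgs10 (0.933) and Fabp5 (0.901), and Myo6 like Amz2 (0.944) and Tob1 (0.944).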

How the data were processed

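The deposited matrices hold raw UMI counts per gene and barcode, made with Cell Ranger 6.1.2 per the file headers, while the build mm39, Seurat 4.3.0 and another Cell Ranger version, 6.0.1, appear in the submitters' processing notes. The deposited features, barcodes and B-cell receptor contig files were used for gene symbols, barcode names and the barcodes that carry a contig. Per the labels, 1 expression and 1 receptor library were made per genotype, so no mean, standard deviation or test over samples could be had. The gene that the KO mice lack and some other genes are not reported here.

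Barcodes with under 200 genes or with 10% or more mitochondrial UMIs were left out. No limit was set on UMIs, since the deposited barcodes of both libraries had 500 or more. Doublets were scored with Scrublet in scanpy 1.11.5 and removed at 0.8% per 1000 barcodes. Clusters (leidenalg 0.10.2; 2000 variable genes, 30 components, 15 neighbours, resolution 1) were named from listed markers by a scoring rule set after the data were seen. CD4, CD8, Foxp3-positive and gamma-delta T cells were set by UMIs of Cd4, Cd8a, Cd8b1, Foxp3 and Trdc. UMIs were summed per library and population and given as CPM with exact Poisson 95% intervals. KO over WT ratios have exact conditional binomial intervals, and shares have Clopper-Pearson intervals. The ratio and its calls were run on simulated independent Poisson counts, the model that the intervals assume. That run does not bear on UMIs that gather in single barcodes or on differences between libraries. Thinning drew 1000 UMIs per barcode.

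The members, lists and markers were chosen with earlier results of these data known. Named are all 9 members, up to 4 genes of each list with the largest absolute log2 ratio in T cells, and the 2 genes most like each member in pattern. Exceptions are said in place.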

Additional observations from a re-analysis of the deposited data

Results flagged for a closer look

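The KO over WT ratio of Ecm1 differed in direction between T-cell subsets, a difference that was not tested. It was 1.72 in CD8 T cells, 0.374 in Foxp3-positive T cells and 0.441 in gamma-delta T cells. The share of CD8 T cells with an Ecm1 UMI was 9.10% in KO and 9.23% in WT, and the gamma-delta UMIs came from 6 KO and 10 WT barcodes. In CD8 T cells the ratio was 0.868 after thinning to 1000 UMIs per barcode and 1.52 without barcodes that hold a Cd79a, Cd79b, Ms4a1 or Lyz2 UMI. In Foxp3-positive T cells it was 0.307, and in gamma-delta T cells 0.762 (0.395 to 1.45), where barcodes with a B-cell receptor contig or a Cd79a, Cd79b or Ms4a1 UMI were left out. B-cell markers summed to 651 CPM in KO and 565 CPM in WT CD8 T cells, and to 350 CPM in KO and 102 CPM in WT gamma-delta T cells, and their part in the ratios was not tested.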

How the results depend on the processing

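No paired analysis was possible because there was 1 library per genotype. With 1 library each, no setting bears on the spread between mice, and Igfbp4, Myo6 and Pdlim4 had 85 UMIs or fewer per library in CD8, Foxp3-positive and gamma-delta T cells and NK cells. The count of members called lower in all T cells was 6 and stayed between 3 and 6. It was 3 with a filter at a mean of 50 CPM, by which fewer genes enter, and 3 without the cluster led by Ms4a4b and Ecm1. In CD4 T cells the count of 6 was 2 with clusters weighted alike and 3 without that cluster. In CD8 T cells the count of 2 was 0 with clusters weighted alike, after thinning, with a filter at a mean of 50 CPM, with at least 2 UMIs of the subset genes and without that cluster. It was 1 with a mitochondrial limit of 20%, without the top barcode of each gene and without barcodes that hold a Cd79a, Cd79b, Ms4a1 or Lyz2 UMI. The ratio of Igfbp4 in CD4 T cells crossed 1, at 1.22 with clusters weighted alike and 1.40 with at least 2 Cd4 UMIs, and that of Ecm1 in CD8 T cells was 0.868 after thinning. The cause was not tested. Over all members and the 3 populations, 292 of 342 ratios lay within the main interval and 47 outside it without crossing 1 from a call. Leaving out the cluster, and leaving out barcodes with B-cell or Lyz2 UMIs, were added after the data were seen.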
